A study of Mus musculus with 24 samples.

Results

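Hox genes record where in the embryo a fibroblast came from, and certain homeodomain, nuclear receptor and T-box genes act beside them. The array read 43 such genes out of 8251 genes with a probe set of their own. They were taken by symbol, as every Hoxa, Hoxb, Hoxc and Hoxd gene, every Meis and Pbx gene, every numbered Nr2f gene and every numbered Tbx gene that the array names, each read on its probe set of highest mean signal. These are 31 Hox genes, 5 Meis or Pbx genes, 3 Nr2f genes and 4 Tbx genes. The cells were primary mouse embryonic fibroblasts (MEFs) at passage 3, either wild type or lacking CHOP (CHOP-/-), the stress-induced transcription factor encoded by Ddit3. RNA was read on 24 arrays, 4 in each of 6 groups lettered A to D. Each genotype was read untreated and at 4 h and 8 h in 2 µg/ml tunicamycin. Tunicamycin blocks N-linked glycosylation and so loads the endoplasmic reticulum with unfolded protein. The labels do not say whether the lettered arrays came from separate embryos or cultures, so every p-value here measures the spread between these arrays only. They name no solvent control and no strain, and nothing says that wild type and CHOP-/- embryos were littermates or were dissected alike.

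Hox genes lie in 4 clusters and are switched on along the body axis in the order of their places in the cluster, so low-numbered paralogs mark anterior and high-numbered paralogs posterior or distal origin. Fibroblasts keep much of this pattern in culture, and a MEF culture pools cells from trunk and limbs. Meis and Pbx proteins are partners that bind DNA together with Hox proteins. The Nr2f genes encode COUP-TF orphan nuclear receptors, and the Tbx genes encode T-box factors that pattern limb, heart and dermis.

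The targeted gene went with the labels: Ddit3 signal was 299.6 ± 97.4 in untreated wild type and 4383 ± 524 after 8 h (SD, n = 4), while the CHOP-/- arrays read between 6.9 and 32.3 untreated and between 7.1 and 39 after 8 h. Of 15 fibroblast markers on the array, 14 had a mean signal over 50, Col1a1 and Thy1 among them, while the Vim probe set stayed under it at 22.0. Array medians ran from 48.2 to 72.6, and among the wild type 4 h arrays A lay 0.27 above and C 0.27 below the mean of all medians on the log2 scale. The summed signal of 9 leukocyte markers, with Cd14 at the highest mean (617.1) and the lysozyme gene Lyz2 next (368.6), ranged from 553 to 4501 over the wild type arrays and from 497.4 to 1669 over the CHOP-/- arrays, with Ptprc (CD45) at a mean of 10.1. Wild type arrays A and B carried the high sums at every time. Wild type arrays C and D read between 553 and 976.8, inside the CHOP-/- range. As a mean over the 3 times, the log2 difference between CHOP-/- and wild type was -1.72 for Lyz2 (adjusted p = 0.0331) and 0.67 for Flt1 (adjusted p = 0.000618; limma, Benjamini-Hochberg), the only one of 6 endothelial markers over 50. Of 5 neural markers tested, Tubb3 and Ncam1 were higher by 0.36 and 0.41. Of 14 fibroblast markers tested, Pdgfrb and Sparc were higher and S100a4, Pdgfra and Col6a1 lower. Of 4 smooth muscle markers Tagln was higher by 0.11 (adjusted p = 0.0168), and of 8 striated muscle markers tested 0 passed. Among all genes tested, 13.8% had an adjusted p under 0.05 in this mean (limma, Benjamini-Hochberg). Over 50 were also 4 of 4 smooth muscle, 4 of 10 striated muscle, 5 of 8 neural, 1 of 6 epithelial, 1 of 4 adipocyte and 0 of 2 cartilage markers. The part of these cell mixtures in the results below was not tested, and in bulk RNA fewer cells of a type and less RNA per cell cannot be told apart.

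The mean signal over all 24 arrays exceeded 50 for 18 of the 43 genes, against 62.3% of all 8251 genes. Hox genes over 50 came mostly from the middle of the clusters: 0 of 5 paralogs numbered 1 to 3 were over 50, 9 of 14 numbered 4 to 8, and 3 of 12 numbered 9 to 13. By cluster the count was 3 of 10 for Hoxa, 4 of 9 for Hoxb, 3 of 5 for Hoxc and 2 of 7 for Hoxd. Among the others, 3 of 5 Meis and Pbx genes, 2 of 3 Nr2f genes and 1 of 4 T-box genes passed. Just above the line lay Meis1 at 51.8 and Hoxa5 at 56.9, and just below it Hoxb9 at 48.0 and Tbx2 at 43.0. Hoxa5 and Meis1 passed only through CHOP-/- groups: their wild type means were 33.6, 32.0 and 36.3, and 36.1, 42.4 and 33.7, at untreated, 4 h and 8 h. With a line of 100 the count was 10, and 11 genes were over 50 on every array. Signals of different probe sets are not on a shared scale, so a low value does not show that a gene was silent.

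**Figure D1:**
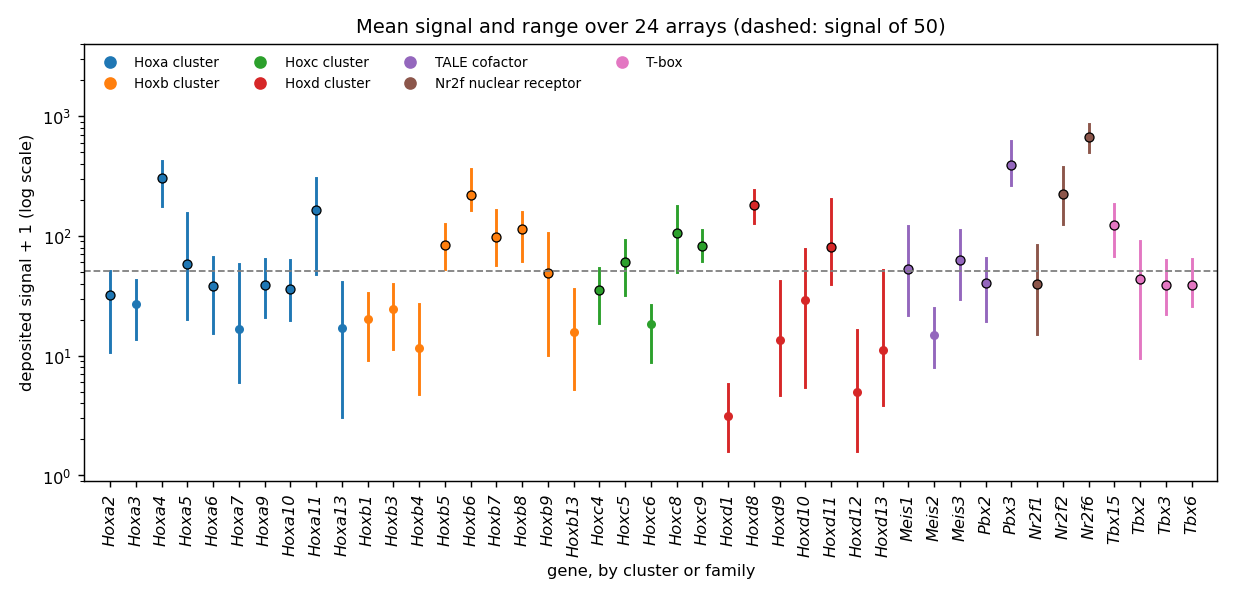
Deposited signal plus 1 of the 43 genes on a log axis, by cluster or family: points are means over the 24 arrays, outlined in black for the 29 genes tested, and bars run from the lowest to the highest array. The dashed line marks a signal of 50, which 18 means exceed; Nr2f6 is highest at 663.6 and Hoxd1 lowest at 2.14.

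Hoxa4, an anterior to central gene, gave 340.9, 372, 229.8 and 405.6 on untreated wild type arrays A to D, 332.1, 299.7, 255.2 and 288.9 after 4 h, and 251.2, 217.5, 177.8 and 305 after 8 h. The CHOP-/- arrays gave 318.4, 248.2, 343.6 and 256.1, then 307.2, 371, 424 and 261.2, then 378, 368.2, 223.1 and 340.9. All 6 groups overlapped, though in wild type each letter read lower at 8 h than untreated. The other 3 Hoxa4 probe sets averaged 15.9, 7.11 and 0.617, so its place over 50 rests on a single probe set. The same holds for Hoxb8, whose other set averaged 4.25, and for Nr2f2, whose other set averaged 1.90.

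Hoxb6, a trunk gene, gave 172, 163.5, 176.9 and 219.8 in untreated wild type, 265.4, 196.8, 193.9 and 272.8 at 4 h, and 162.6, 168.2, 179.8 and 211.2 at 8 h. CHOP-/- arrays gave 240.6, 173.9, 175.5 and 191.9 untreated, 360.6, 329.3, 271.7 and 217.3 at 4 h, and 257.5, 271.3, 177.2 and 199 at 8 h. The 4 h groups had the higher means in both genotypes, but with overlapping arrays. The 4 h difference was 0.58 ± 0.17 in CHOP-/- cells (SE, adjusted p = 0.1) and in wild type 0.28 ± 0.17 (adjusted p = 0.649; limma, Benjamini-Hochberg). Hoxd8, a trunk gene of the Hoxd cluster, gave 227.9, 214.8, 166.2 and 143.8 in untreated wild type, 242.1, 199, 173.5 and 160.8 at 4 h, and 220.8, 193.9, 157.9 and 126.5 at 8 h. The order A, B, C, D from high to low was the same in all 3 wild type groups. The CHOP-/- arrays gave 170.5, 170.8, 155.3 and 166.3 untreated, 185.3, 188.2, 132.6 and 229.6 at 4 h, and 164.9, 172.8, 147.4 and 177.4 at 8 h, with C lowest each time.

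The remaining Hox genes over 50 passed the test in no comparison. Their group means are given in the order untreated, 4 h and 8 h, wild type first. Hoxb5 averaged 71.9, 84.2 and 71.8, then 84.5, 92.8 and 92.7. Hoxb7 averaged 116.4, 84.8 and 93.3, then 112.2, 81.0 and 93.5, and Hoxb8 averaged 101.8, 109.5 and 106.7, then 107.1, 111.4 and 137.6. Hoxd11, a limb gene described further below, averaged 83.9, 61.8 and 62.3, then 125.8, 65.3 and 80.0. Hoxc5 averaged 72.5, 53.6 and 57.5, then 58.4, 60.8 and 53.5. Hoxc8 averaged 99.8, 101.6 and 96.5, then 113.1, 115.0 and 103.8, and Hoxc9 averaged 79.8, 77.7 and 79.0, then 88.0, 77.7 and 88.9. Of the 31 Hox genes 13 were too low for the test, with Meis2 as the only other gene below its minimum. Those 14 genes had means between 2.14 and 27.9.

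Pbx3, a partner of Hox proteins on DNA, gave 267.3, 391.4, 404 and 320.2 in untreated wild type, 464.9, 373.8, 365.7 and 297.3 at 4 h, and 286.3, 336.8, 299.7 and 280.7 at 8 h. It gave 561.6, 363.4, 570.2 and 355.6, then 508.2, 534.4, 276.1 and 333.8, then 387.9, 624.1, 400.6 and 345.4 in CHOP-/- cells. After 8 h all 4 CHOP-/- arrays lay above all 4 wild type arrays. Meis3 averaged 56.9, 48.6 and 49.4 in wild type and 71.1, 79.5 and 65.8 in CHOP-/- cells, with overlapping arrays. Nr2f2 (COUP-TFII) gave 184, 183.2, 159 and 148.5, then 317.4, 280.2, 124.2 and 149.5, then 245.4, 265.6, 220.9 and 168 in wild type, where each letter read higher at 8 h than untreated. The CHOP-/- arrays gave 195.9, 186.1, 259.1 and 185.9, then 266.8, 372.2, 271.3 and 243.2, then 246.7, 144.3, 217.2 and 297.3. The untreated CHOP-/- arrays all lay above the untreated wild type arrays, by a log2 difference of 0.25 ± 0.23 (SE) that did not pass the test (adjusted p = 0.819, limma, Benjamini-Hochberg). Tbx15, a T-box gene of dermis and skeleton, gave 133.1, 110.8, 127 and 138.7, then 153.2, 138.2, 83.4 and 183.2, then 109.6, 153.1, 73.5 and 154.2 in wild type. It gave 87.5, 66.9, 121.9 and 125.1, then 136, 121.9, 94.5 and 117.1, then 101.8, 114.1, 100.5 and 179.8 in CHOP-/- cells, and no pair of its groups separated.

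The 250 bases before the transcription start are shown for 4 genes that passed the test below. Hoxa5 and Meis1 differed by genotype, and Hoxa11 and Nr2f1 changed with tunicamycin. The sequences are from RefSeq (GRCm38.p6), which gave windows for 28 of the 43 genes, and are written 5′ to 3′ on the gene's strand, here the minus strand for all 4. Nr2f1 has another window there, with none of the letters searched. Capitals mark letters found by a search of both strands for the CCAAT box (CCAAT), the second part of the ER stress response element (CCACG), the C/EBP-ATF composite bound by CHOP with ATF4 (TGATGNAA), a Meis hexamer (TGACAG), a Pbx-Hox site (TGATTNAT), a nuclear receptor half-site (AGGTCA) and a TATA box (TATAAA); none of these motifs contains another.
Hoxa5, chr6:52204588-52204837: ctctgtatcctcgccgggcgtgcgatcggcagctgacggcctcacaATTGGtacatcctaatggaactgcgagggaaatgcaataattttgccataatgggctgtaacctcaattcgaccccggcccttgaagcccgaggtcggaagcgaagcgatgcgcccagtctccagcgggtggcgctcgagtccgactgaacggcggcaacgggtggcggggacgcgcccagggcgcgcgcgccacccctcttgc
Hoxa11, chr6:52245811-52246060: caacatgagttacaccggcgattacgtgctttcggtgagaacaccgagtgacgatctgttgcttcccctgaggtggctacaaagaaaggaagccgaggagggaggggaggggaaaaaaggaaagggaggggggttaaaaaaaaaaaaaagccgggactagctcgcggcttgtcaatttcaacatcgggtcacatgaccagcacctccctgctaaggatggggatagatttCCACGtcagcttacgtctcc
Meis1, chr11:19018970-19019219: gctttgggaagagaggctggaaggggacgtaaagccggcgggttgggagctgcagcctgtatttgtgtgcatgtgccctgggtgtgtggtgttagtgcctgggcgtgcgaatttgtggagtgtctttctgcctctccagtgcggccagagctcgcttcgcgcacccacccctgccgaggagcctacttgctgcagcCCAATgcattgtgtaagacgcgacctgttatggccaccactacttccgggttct
Nr2f1, chr13:78198874-78199123: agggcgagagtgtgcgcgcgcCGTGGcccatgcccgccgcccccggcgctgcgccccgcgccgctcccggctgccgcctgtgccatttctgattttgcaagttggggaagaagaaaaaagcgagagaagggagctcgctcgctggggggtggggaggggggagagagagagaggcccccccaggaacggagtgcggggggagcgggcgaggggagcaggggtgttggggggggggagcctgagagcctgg

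The Hoxa5 and Meis1 windows each held a CCAAT box, in Hoxa5 on the opposite strand. The Hoxa11 window held CCACG, and the Nr2f1 window held it on the opposite strand. Of the other genes that passed the test, Hoxa9 and Nr2f6 also had windows, which are not shown. The Hoxa9 window held none of the letters searched, and the Nr2f6 window held CCACG on both strands and no CCAAT box. Over the 7 windows of genes that passed, CCAAT stood in 2, CCACG in 3 and each other motif in 0. CCAAT stood in 15 of the 31 windows given for the 43 genes (48.4%) and in 33.8% of all 32851 windows, and CCACG in 9 of 31 and 28.3%. The composite TGATGNAA stood in 0 of 31 and in 3.45% of all windows. The Pbx-Hox letters stood in 3 of 31 (9.68%) against 2.82%, TGACAG in 2 of 31 (6.45%) against 15.9%, AGGTCA in 4 of 31 (12.9%) against 14.0%, and TATAAA in 5 of 31 (16.1%) against 12.4%. A match is only a run of letters in this window.

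Genotypes were compared next, at each time and as the mean of the 3 times. Differences are CHOP-/- minus wild type in log2(signal + 5.7) after quantile normalization, and a gene was called where its limma p, adjusted by the Benjamini-Hochberg method over the 5662 genes above a signal of 28.6, was under 0.05. Of the 43 genes, 29 were tested. In untreated cells 1 of the 29 was called (0.989% of all genes tested), at 4 h 0 of 29 (2.44%), at 8 h 1 of 29 (4.17%) and in the mean of the 3 times 4 of 29 (13.8%, the same share as among all genes). At 4 h, 4 of the 29 and 878 of all genes had an unadjusted p under 0.05, and weighting the arrays by quality called 1 gene, Hoxa5. The mean of the 3 times uses the arrays of the single-time comparisons again, so it repeats them. It also takes 12 arrays a genotype as independent, whereas wild type arrays of a letter deviated together across the times. With the arrays of a letter averaged first, 4 values against 4, Hoxa5 and Tbx2 were called and Meis1 and Nr2f6 were not. The shares of all genes called with array weights or with letters averaged are not given here. A count that moved under these settings is therefore not a result about these genes alone.

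Hoxa5, which patterns the cervical to thoracic trunk and lung mesenchyme, was the Hox gene that differed between genotypes. Untreated CHOP-/- arrays A to D gave 138.7, 74.6, 154.1 and 80.2, against 44.2, 30.6, 25.7 and 33.9 in wild type. Every CHOP-/- array lay above every wild type array. After 4 h the CHOP-/- arrays gave 74.2, 113.2, 37.9 and 59.3 and the wild type arrays 49.1, 28.8, 19.4 and 30.7, and after 8 h they gave 39.2, 92.6, 45.5 and 49.3 against 40.6, 43, 34.8 and 26.7. The groups overlapped at both later times. The difference was 1.51 ± 0.28 (SE) untreated, 0.94 ± 0.28 at 4 h and 0.51 ± 0.28 at 8 h, with adjusted p of 0.0046, 0.0774 and 0.383 (limma, Benjamini-Hochberg). Its mean was 0.98 ± 0.16 (adjusted p = 0.000173, and 0.00704 with letters averaged). The neighbouring Hoxa4 and Hoxa6 were not called in any of these comparisons, Hoxa4 differing by -0.22 ± 0.20 in untreated cells.

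Tbx2, a T-box repressor of limb and heart, stood below a signal of 50 as a mean but higher in CHOP-/- cells. The untreated arrays gave 67, 58.6, 90.5 and 64.5 in CHOP-/- cells against 25.7, 39, 20.2 and 43.5 in wild type. After 4 h they gave 46.8, 59.3, 49.9 and 48.3 against 32, 11.2, 29.4 and 61.6, and after 8 h 60, 39, 58.6 and 35.9 against 29.5, 15, 8.5 and 38.8. Untreated groups did not overlap, and at the later times wild type array D alone overlapped, lying above all 4 CHOP-/- arrays at 4 h and above CHOP-/- array D at 8 h. No single time was called, with differences of 0.98 ± 0.34, 0.64 ± 0.34 and 1.02 ± 0.34 (SE) and adjusted p of 0.277, 0.373 and 0.101. The mean over the times was 0.88 ± 0.20 (adjusted p = 0.00413, and 0.0452 with letters averaged; limma, Benjamini-Hochberg). The other Tbx2 probe sets gave 0.69 (adjusted p = 0.0612) and 0.29 (adjusted p = 0.225) in a fit of all 12422 non-control probe sets.

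Meis1, a Hox partner of proximal limb and blood progenitors, was called at 8 h and at no other single time. Its difference in response at 8 h, given further below, was not called. After 8 h it gave 93.9, 118.8, 79.7 and 82.4 on the CHOP-/- arrays and 44.8, 38.3, 30.7 and 20.9 on the wild type arrays. These groups were far apart. Untreated arrays gave 69.9, 42.4, 28.9 and 54 against 54, 35.6, 26.5 and 28.4, and 4 h arrays gave 75.7, 95.3, 26.8 and 26.2 against 51, 42.5, 33.7 and 42.5, in both cases with overlap. The 8 h difference was 1.33 ± 0.33 (SE, adjusted p = 0.0211), against 0.31 untreated and 0.11 at 4 h. It lost the call without wild type array D, CHOP-/- array A or CHOP-/- array B (adjusted p up to 0.0862). Here the letters paired the arrays, and a replicate block within these 2 groups called 2 genes, Meis1 and Pbx3, in place of 1. Calls rose over all genes too, to 11.6% in place of 4.17%. The mean over the times, 0.59 ± 0.19 (adjusted p = 0.0417), passed narrowly and was lost when any of 16 of the 24 arrays was left out, in turn, and with letters averaged (adjusted p = 0.198; limma, Benjamini-Hochberg).

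Nr2f6, the COUP-TF relative with the highest signal, gave 760.6, 651.1, 675.6 and 702.6 in untreated CHOP-/- cells against 632.7, 641.7, 542.5 and 636.8 in wild type. At 4 h it gave 667.9, 810.9, 864 and 751.9 against 586.2, 498.2, 711.5 and 681.5, and at 8 h 758.4, 699.2, 709.4 and 631.2 against 570.9, 548.1, 634.1 and 558.9. The untreated groups did not overlap, and the later ones did by a few arrays. The mean difference was small, 0.25 ± 0.07 (SE, adjusted p = 0.014), and was not called with arrays centred on their medians (adjusted p = 0.122) or with letters averaged (adjusted p = 0.11; limma, Benjamini-Hochberg). Pbx3 gave 0.34 ± 0.12 as a mean (adjusted p = 0.0772) and 0.51 ± 0.22 at 8 h (adjusted p = 0.216). On another of its 3 probe sets the 8 h arrays also separated, at 185.4 to 193.2 in CHOP-/- cells and 143.1 to 181.4 in wild type. Its remaining probe set is not reported here.

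**Figure D2:**
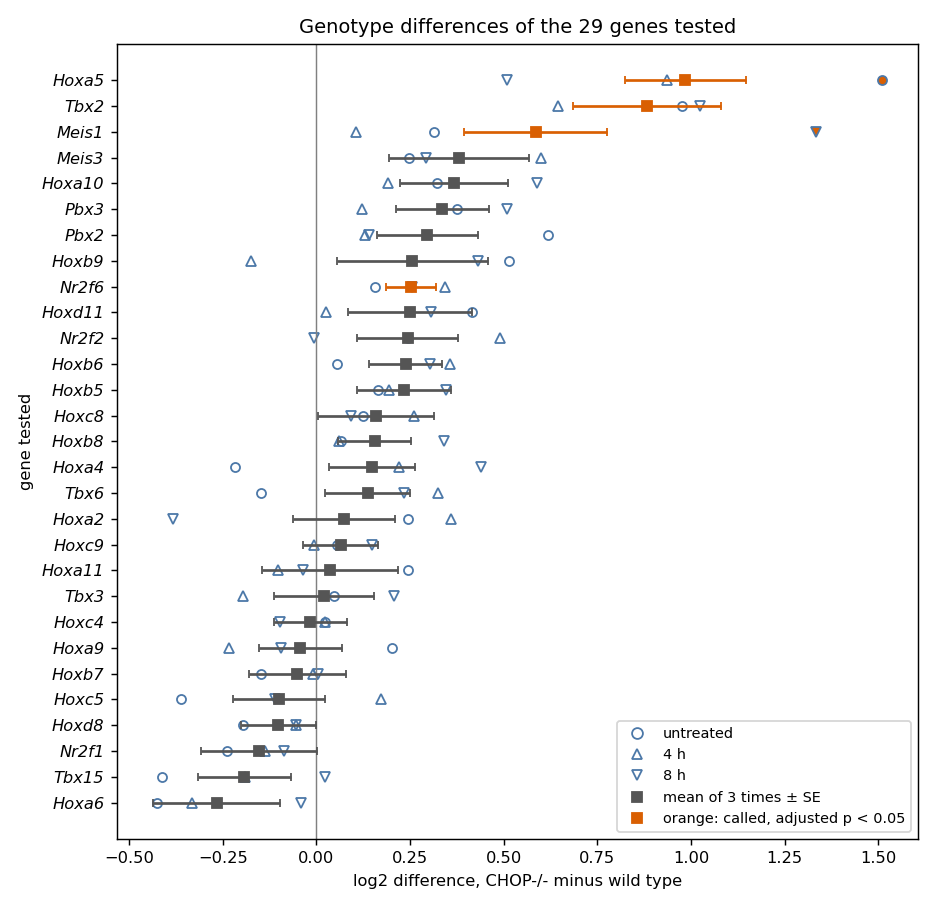
Log2 difference, CHOP-/- minus wild type, of the 29 tested genes: squares give the mean of the 3 times with its standard error, and open symbols the single times, filled where called. Hoxa5, Tbx2, Meis1 and Nr2f6 are called in the mean, all higher in CHOP-/- cells, and 21 of the 29 means are above 0.

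Over the tested genes the mean difference was above 0 for 21 of 29, with a median of 0.16, against 51% and a median of 0.00 among all genes. The count was 21 with arrays centred on their medians and 22 without further normalization. It was 21, 19 and 20 of 29 at the single times. No gene of the 29 was called lower in CHOP-/- cells at any time or in the mean. Among all genes tested, few were called lower by limma either: 0.371% untreated, 1.29% at 4 h, 1.91% at 8 h and 6.59% in the mean. The largest negative mean was -0.27, and Nr2f1 stood at -0.15 ± 0.16 (adjusted p = 0.579, limma, Benjamini-Hochberg).

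**Figure D3:**
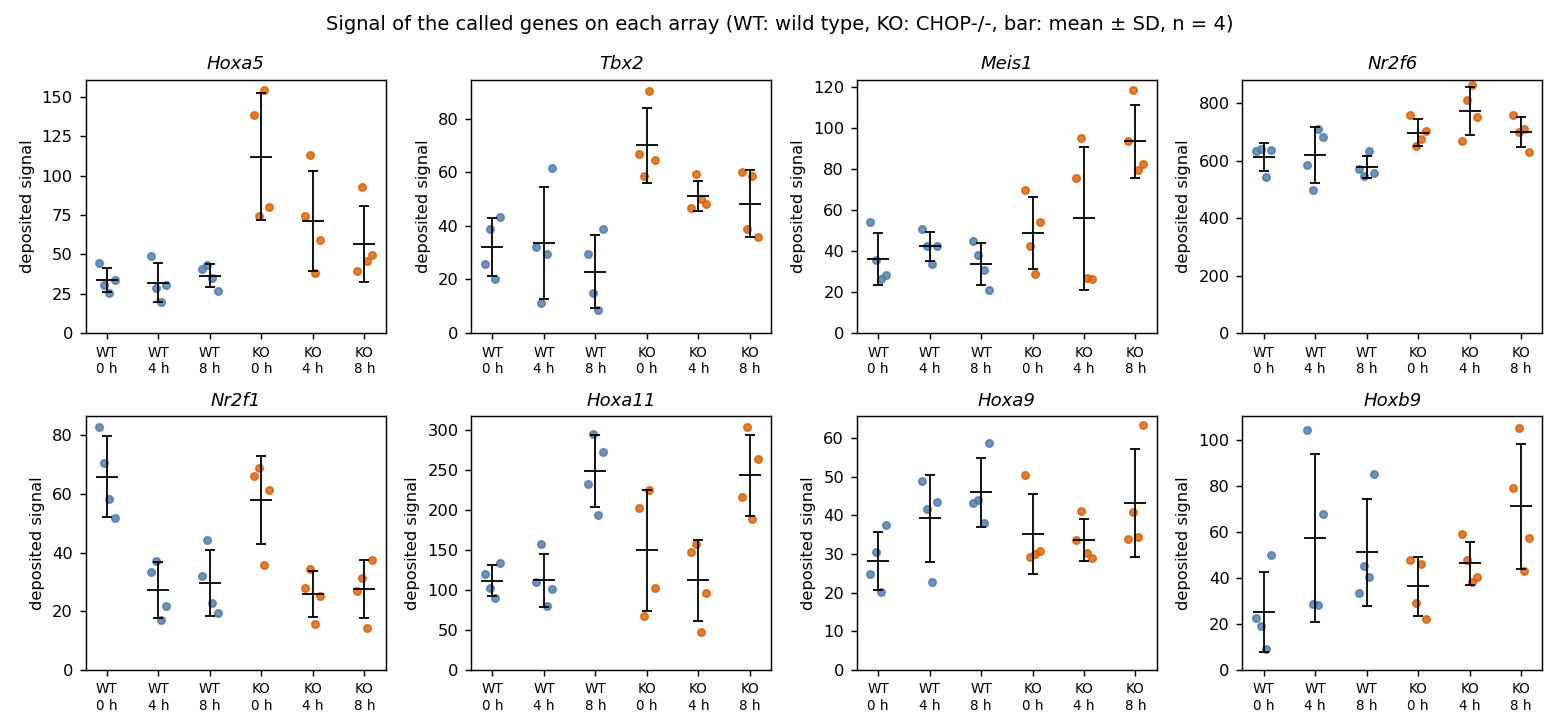
Deposited signal of the 8 called genes on every array, with the mean ± SD of each group of 4 (WT, wild type; KO, CHOP-/-; 0, 4 and 8 h of tunicamycin). Hoxa5 is high on untreated CHOP-/- arrays, Meis1 on 8 h CHOP-/- arrays, Nr2f1 is low after tunicamycin in both genotypes, and Hoxa11 is high at 8 h in both.

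The untreated CHOP-/- arrays stood apart from each other, A and C from B and D, a split chosen after the values were seen and given without a test. Both A and C read above both B and D for 19 of the 43 genes and below both for 0. Over all 8251 genes the shares were 27.3% above and 17.5% below, so these arrays differed broadly and not in these genes alone. Of the 12 Hox paralogs numbered 9 to 13, 7 read higher on A and C, and Hoxa9, Hoxa10, Hoxb13, Hoxc9 and Hoxd9 did not divide this way. Hoxa11, which patterns the zeugopod (the forearm or shank) of the limb, gave 201.9 and 224.6 on A and C but 66.8 and 102.7 on B and D. Hoxd11, which acts in the same limb segment, gave 147.5 and 202 against 60.2 and 93.3, and the digit gene Hoxd13 gave 38.5 and 50.7 against 2.9 and 5.5. Every other array of the study read Hoxd13 at 12.9 or less. Hoxa5, Tbx2 and Pbx3 also read highest on A and C, while Hoxc9, a thoracic gene, gave 96.8 and 60.6 on A and C and 83.8 and 110.9 on B and D. Summed list signals divided in the same way for leukocyte markers (1669 and 1259 against 972.6 and 615.8), endothelial markers (357.7 and 366.5 against 234.5 and 266.2), adipocyte markers (214.2 and 216.5 against 115.9 and 151.5), the other patterning factors (6514 and 6272 against 4382 and 4835) and Polycomb and trithorax genes (5002 and 4748 against 4049 and 4212). Epithelial markers divided likewise by a narrow margin (200.6 and 201.1 against 168.1 and 197.8). Striated muscle markers ran the other way, at 3484 and 1927 against 4332 and 3984. So did the summed retinoid signalling and Cdx genes described further below, at 3372.9 and 2488.5 against 4191.7 and 3559. Fibroblast markers (34174 and 49009 against 43707 and 35752) and smooth muscle markers (10073 and 14628 against 15265 and 12494) did not divide. Neither did neural markers (3728 and 4870 against 4050 and 3708) or cartilage markers. Of the endothelial, adipocyte and epithelial markers only Flt1, Cebpa and Cdh1 had a mean over 50, 1 in each list. The part of these differences between arrays in the untreated genotype values was not tested. The SD of the 4 untreated CHOP-/- arrays was 76.2 for Hoxa11 and 62.3 for Hoxd11.

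Tunicamycin changed few of these genes. In wild type 1 of 29 was called after 4 h (2.14% of all genes tested) and 4 of 29 after 8 h (16.7%). Without CHOP 1 was called after 4 h (1.52%) and 3 after 8 h (14%). The 4 h and 8 h comparisons of a genotype share its untreated arrays, so they are not independent of each other. The letters paired the wild type untreated and 8 h arrays, and a replicate block within these 2 groups called 6 of 28 in place of 4 of 29 (28.8% of all genes), adding Hoxa4 and Nr2f2. Hoxa4 was lower at 8 h than untreated in all 4 lettered pairs, by -0.51 ± 0.12 (SE, adjusted p = 0.0124 with the block and 0.0846 without). Nr2f2 was higher in all 4, by 0.36 ± 0.11 (adjusted p = 0.0419 with the block and 0.346 without; limma, Benjamini-Hochberg). The shares of called genes at 8 h, 4 and 3 of 29, lay near or under those of all genes.

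Nr2f1 (COUP-TFI), known from neural crest and forebrain patterning, fell in both genotypes. Untreated wild type arrays gave 83, 70.6, 58.3 and 51.8, the 4 h arrays 33.5, 37.2, 16.9 and 21.6, and the 8 h arrays 32, 44.4, 22.7 and 19.5. All treated wild type arrays lay below all untreated ones. CHOP-/- arrays gave 66, 68.7, 35.8 and 61.4 untreated, 28, 34.5, 15.6 and 25 at 4 h, and 27, 31.2, 14.1 and 37.6 at 8 h, where array D reached above the lowest untreated array, C. The differences at 4 h and 8 h were -1.16 ± 0.27 and -1.0 ± 0.27 in wild type (adjusted p of 0.0197 and 0.0115) and -1.06 ± 0.27 and -0.85 ± 0.27 in CHOP-/- cells (adjusted p of 0.0469 and 0.0339; limma, Benjamini-Hochberg, SE). The fall was called in both genotypes, and the 8 h responses differed by 0.15 with a 95% interval from -0.63 to 0.93. With 4 arrays a group the calls are narrow. Leaving out A or B of the untreated arrays, A, C or D of the 4 h arrays, or both A and C of the latter ended the 4 h call in wild type (adjusted p up to 0.186), and leaving out array D of the 8 h arrays ended the 8 h call (0.0518). The CHOP-/- call at 4 h was lost without untreated A, B or D or 4 h A, C or D (adjusted p up to 0.216) and that at 8 h without untreated A, B or D or 8 h A or C (up to 0.142).

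Hoxa11 rose after 8 h. Wild type arrays gave 119.6, 102.3, 89.4 and 133.4 untreated, 109.5, 156.9, 79.3 and 100.6 at 4 h and 231.7, 294.9, 193.9 and 272 at 8 h. Every 8 h array was above every earlier wild type array. CHOP-/- arrays at 8 h gave 215.6, 303.7, 188.9 and 263.7, close to the wild type values letter by letter, and overlapped the 2 high untreated arrays. The wild type difference was 1.09 ± 0.31 (SE, adjusted p = 0.0188) and the CHOP-/- difference 0.81 ± 0.31 (adjusted p = 0.0933; limma, Benjamini-Hochberg). The responses differed by -0.28 with a 95% interval from -1.20 to 0.64. The wild type call was lost without untreated array C or 8 h array B or D (adjusted p up to 0.0533). Hoxa11os, the antisense RNA of the same locus, averaged 67.7 ± 8.84, 55.7 ± 17.1 and 82.9 ± 12.4 (SD, n = 4) in wild type on a probe set of its own. It did not pass at 8 h (0.30, adjusted p = 0.614 in the limma fit of all probe sets). Another Hoxa11os probe set averaged 29.5, 18.2 and 27.75 in wild type, no higher at 8 h than untreated.

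Hoxa9, 2 genes nearer the middle of the cluster, gave 24.7, 30.4, 20.1 and 37.5 in untreated wild type, 48.9, 41.8, 22.8 and 43.4 at 4 h, and 43.3, 44, 38 and 58.7 at 8 h. The 8 h arrays all exceeded the untreated ones, by 0.66 ± 0.19 (SE, adjusted p = 0.0202). CHOP-/- arrays gave 50.6, 29.3, 30 and 30.8, then 33.7, 41.2, 30.3 and 29, then 33.9, 41, 34.3 and 63.5, with overlap and a difference of 0.36 ± 0.19 (adjusted p = 0.237; limma, Benjamini-Hochberg). Leaving out untreated A or C or 8 h D ended the wild type call (adjusted p up to 0.0839), as did omitting further normalization or fitting only the compared groups. Hoxa10, which lies between Hoxa9 and Hoxa11, averaged 33.8, 29.6 and 24.7 in wild type and 44.1, 37.6 and 40.5 in CHOP-/- cells, and its 8 h difference in wild type was -0.29 ± 0.25. It was not called, and its difference from its neighbours was not tested.

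Hoxb9, a thoracic gene, gave 22.5, 19.1, 9.1 and 49.9 in untreated wild type, 104.6, 28.8, 28.3 and 68 at 4 h and 33.4, 45.4, 40.6 and 85.4 at 8 h. Untreated array D lay above 3 of the 8 h arrays. CHOP-/- arrays gave 48, 29.2, 46.2 and 22, then 59, 48, 38.3 and 40.5, then 79.4, 105.6, 42.9 and 57.5. The 8 h difference was 1.01 ± 0.35 in wild type (SE, adjusted p = 0.0496) and 0.92 ± 0.35 in CHOP-/- cells (adjusted p = 0.0828; limma, Benjamini-Hochberg). The wild type call, the narrowest of all, was lost without any single array of A, B or C untreated or B, C or D at 8 h, and under 5 of 10 other settings (adjusted p up to 0.186).

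By 8 h Meis1 rose and Hoxa5 fell in CHOP-/- cells. The Meis1 arrays listed above went from 28.9 to 69.9 untreated to 79.7 to 118.8 at 8 h without overlap, a difference of 0.98 ± 0.33 (SE, adjusted p = 0.0476), against -0.04 ± 0.33 in wild type (adjusted p = 0.958). Hoxa5 went from a mean of 111.9 to one of 56.6, a difference of -0.86 ± 0.28 (adjusted p = 0.0404), against 0.14 ± 0.28 in wild type (adjusted p = 0.802; limma, Benjamini-Hochberg). The Hoxa5 value uses the untreated CHOP-/- arrays that set its genotype difference, and 8 h array B at 92.6 lay above untreated arrays B and D. The Hoxa5 call was lost without untreated A or C or 8 h A, C or D (adjusted p up to 0.136), and with no filter or only the compared groups. The Meis1 call was lost without any of untreated B, C or D or any 8 h array (adjusted p up to 0.153), and under 4 of 10 other settings: no further normalization, a pseudocount at the 10th percentile, no filter and array weights.

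**Figure D4:**
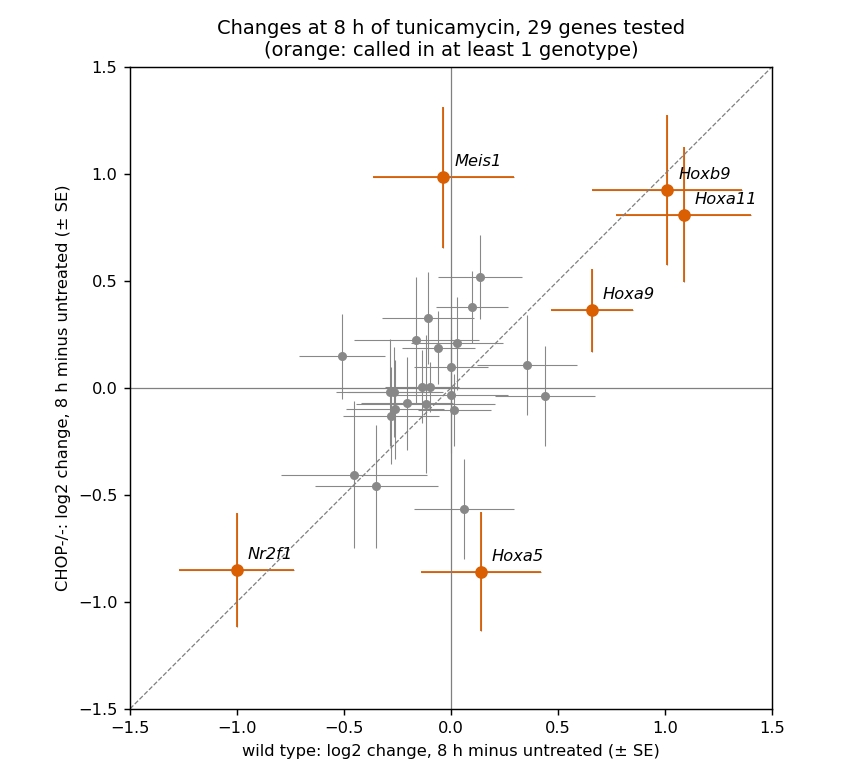
Log2 difference, 8 h of tunicamycin minus untreated, of the 29 tested genes in wild type (horizontal) and CHOP-/- cells (vertical), with standard errors; orange marks genes called in at least 1 genotype. Hoxa11 and Hoxb9 lie at high values and Nr2f1 at low values on both axes, while Meis1 and Hoxa5 lie off the diagonal.

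Whether the response itself depended on genotype was tested as an interaction. At 8 h 0 of 29 genes were called by limma after Benjamini-Hochberg adjustment (0.0353% of all genes tested, 2 genes), with 3 of the 29 and 260 of all genes at an unadjusted p under 0.05. The 3 were Meis1 at 1.02 ± 0.47 (SE), Hoxa5 at -1.0 ± 0.39 and Hoxa4 at 0.66 ± 0.28, each with an adjusted p of 1. At 4 h 0 of 29 were called (0% of all genes), and 0 of 29 and 227 of all genes had an unadjusted p under 0.05. A genotype-dependent response was therefore not shown for any of these genes.

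Other regulators of position and of Hox expression were read from lists of genes. Of 40 other mesenchymal patterning factors on the array 19 were tested. In the mean of the 3 times 3 were higher and 1 lower in CHOP-/- cells: the kidney progenitor factor Six2 by 0.82 ± 0.18 (SE, adjusted p = 0.00285), the mesoderm factor Gata6 by 0.66 ± 0.11 (adjusted p = 0.000151), the forkhead factor Foxc2 by 0.62 ± 0.18 (adjusted p = 0.0265) and the dermal factor Twist2 by -0.58 ± 0.13 (adjusted p = 0.00493; limma, Benjamini-Hochberg). The count of 4 of 19 compares with 13.8% called among all genes, and the median of the list was 0.12. Gata6 was also the only one called at a single time, by 0.88 ± 0.19 at 4 h. After 8 h of tunicamycin 2 of 19 were called in each genotype, against 16.7% of all genes in wild type and 14% in CHOP-/- cells: the homeobox gene Dlx2 fell by 1.67 in wild type and by 1.6 in CHOP-/- cells (adjusted p of 0.00557 and 0.00892), Shox2 fell by 0.98 in wild type (adjusted p = 0.045) and Irx3 rose by 0.69 in CHOP-/- cells (adjusted p = 0.0229). After 4 h 0 of 19 were called in either genotype, where limma called 2.14% and 1.52% of all genes.

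Of 20 Polycomb and trithorax genes, whose products hold Hox genes off or on, 18 were tested. Kdm6a, the demethylase that removes the Polycomb mark, rose by 1.13 ± 0.21 (SE) after 4 h and 1.45 ± 0.21 after 8 h in wild type (adjusted p of 0.00278 and 3.39e-05) and by 1.27 ± 0.21 after 8 h in CHOP-/- cells (adjusted p = 0.000201). The Polycomb subunit gene Cbx6 fell by 0.50, 0.74 and 0.76 in the same comparisons, and Yy1 rose by 0.54 and 0.48 at 8 h in wild type and CHOP-/- cells (adjusted p of 0.0166 and 0.0337; limma, Benjamini-Hochberg). Ezh1 rose by 0.62 in wild type at 8 h (adjusted p = 0.02). In wild type 2 of 18 were thus called at 4 h (2.14% of all genes) and 4 of 18 at 8 h (16.7%). In CHOP-/- cells 0 of 18 were called at 4 h (1.52%) and 3 of 18 at 8 h (14%). Between genotypes Eed was higher by 0.22 and Ash2l differed by -0.39 in the mean of the 3 times, 2 of 18 against 13.8% of all genes.

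Of 17 genes of retinoid signalling and the Cdx factors, which turn Hox genes on in the embryo, 7 were tested. In the mean of the 3 times 3 of the 7 were called, all higher in CHOP-/- cells, against 13.8% of all genes called and 7.19% called higher: the retinoic acid receptor genes Rara by 0.79 ± 0.23 (SE, adjusted p = 0.0225) and Rarg by 0.50 ± 0.14 (adjusted p = 0.0178), and the retinoic acid synthesis gene Aldh1a3 by 1.19 ± 0.38 (adjusted p = 0.0369; limma, Benjamini-Hochberg). The median of the 7 was 0.46, against 0.00 for all genes tested. The summed signal of the 17 genes went the other way, averaging 4225, 3869 and 3719 in the wild type groups and 3403, 3730 and 3142 in the CHOP-/- groups at untreated, 4 h and 8 h. Wild type arrays A and B carried the high sums, 5305 and 6516 against 2516 and 2563 on C and D when untreated, as they did for leukocyte markers, and the part of this in the values above was not tested. With tunicamycin Rxrb rose by 0.57 in wild type after 8 h (adjusted p = 0.032) and the retinoic acid binding protein gene Crabp2 fell by 1.31 in CHOP-/- cells (adjusted p = 0.0163). These list values rest on 12 arrays a genotype taken as independent, as above, and were not refitted with letters averaged.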

How the data were processed

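Intensities were taken as deposited: the authors gave 1 linear signal per probe set and array, and their software and scaling were not given in the sources used here. Of 12488 probe sets, 66 were controls and left out, 10833 named 1 gene and 396 several. Each of 8251 genes was read on its probe set of highest mean; 9 of the 43 genes had more than 1. All 43 matched RefSeq (GRCm38.p6) by gene ID. Signals plus 5.7 (their 20th percentile) were log2 transformed and quantile normalized, and 5662 genes with a mean over 28.6 (the 40th percentile) were tested in limma 3.58.1 (R 4.3.3), 6 group means over all 24 arrays, moderated with an intensity trend, 18 residual degrees of freedom, two-sided, Benjamini-Hochberg within each of 10 contrasts. Standard errors had a median of 0.189. The number of arrays limits the precision. Alternatives were the normalization, pseudocount, filter, array weights, the mean over all probe sets of a gene, compared groups only, each array left out and the replicate block. The letters paired the arrays in wild type across times (correlations of deviations 0.31 to 0.55 for untreated with 4 h, 0.41 to 0.62 for untreated with 8 h) and between genotypes at 8 h (0.29 to 0.55), but not between untreated genotypes (-0.08 to 0.10), at 4 h (-0.07 to 0.46) or within CHOP-/- cells (-0.34 to 0.43). The genes and lists were chosen with earlier results of these data known. Array values are printed for every called gene and for the 8 genes of highest mean, group means for the others over 50, and up to 4 called genes per comparison for each list. Figures used matplotlib 3.10.9 under Python 3.11.15.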

Additional observations from a re-analysis of the deposited data

Results flagged for a closer look

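Among 22 named genes in 6 groups, 132 sets of 4 arrays, 8 held an array whose gap to the others exceeded Dixon's 95% limit; chance flags about 1 in 20 sets. In untreated CHOP-/- cells Hoxa9 stood at 50.6 on array A (the others 29.3 to 30.8), Hoxb5 at 116.8 on array A (70.3 to 76.5) and Nr2f2 at 259.1 on array C (185.9 to 195.9). In CHOP-/- cells after 4 h Hoxb7 was low on array A at 57.9 (87 to 89.8) and Hoxc8 high on array B at 137.3 (105.8 to 111). In wild type Hoxb8 was low on array C after 8 h at 78.3 (114 to 117.5), untreated Meis3 high on array D at 86.3 (45.3 to 50) and untreated Nr2f6 low on array C at 542.5 (632.7 to 641.7).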

How the results depend on the processing

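Of 15 named single-gene differences, the Hoxa5 difference in untreated cells and the mean differences of Hoxa5 and Tbx2 passed under every alternative run for them; none of the 15 changed sign. A minimum signal of 50 leaves out Tbx2, Nr2f1, Hoxb9 and Hoxa9. Averaging all probe sets of a gene also left Tbx2 untested, since its other sets were low. Apart from arrays left out in turn, its mean difference was thus run under 9 settings and that of Hoxa5 under 11. Counts of called genes moved as follows, and the cause was not tested beyond the genes or arrays that a setting removes. Shares of all genes called are given below only for the replicate block, so a moved count is not a result about these genes alone. In CHOP-/- cells after 4 h the count was 0 in place of 1 with median centring, without normalization, without a filter, with a minimum of 50 and with only the compared groups. After 8 h it was 1 without a filter, 5 with array weights and 1 with only the compared groups, in place of 3. In wild type after 8 h it was 2 without normalization, 1 with a minimum of 50 and 2 with only the compared groups, in place of 4. In wild type after 4 h it was 0 with a minimum of 50 or without arrays A and C. Between genotypes it was 1 with array weights at 4 h, and 2 with letters averaged over the times in place of 4. Between genotypes at 8 h the replicate block within the compared groups gave 2 in place of 1 (11.6% of all genes in place of 4.17%). In wild type after 8 h the block gave 6 in place of 4 (28.8% of all genes in place of 16.7%). It changed no other count of the paired comparisons by over 1.5 times. The block within compared groups, the run without A and C, and letters averaged were chosen after seeing the data. Leaving out 1 array gave 0 to 1 between genotypes at 4 h (1 without CHOP-/- array C) and 0 to 1 at 8 h. It gave 0 to 1 in wild type after 4 h, 1 to 4 after 8 h, 0 to 1 in CHOP-/- cells after 4 h and 0 to 2 after 8 h. The count over a signal of 50 was 10 at a line of 100 and 11 on every array.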
